A study of Mus musculus with 2 samples.

Results

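The genes described here are 59 that carry names of Wnt and hedgehog signalling families, measured in mouse lung with and without chest irradiation. They were chosen by their names alone: symbols of Wnt ligands, frizzled receptors, secreted Wnt antagonists, axins, Lrp co-receptors, Lef1 and Tcf7 factors, R-spondins, Lgr receptors, hedgehog ligands, Gli factors and patched, Smo and Hhip proteins. The 59 genes occupy 60 of the array's transcript clusters, a cluster being the set of probes for about 1 gene, out of 19049 genes with a symbol of their own. The nonirradiated group is lung of male C57BL/6 mice that served as negative controls. The irradiated group is lung of male C57BL/6 mice whose chest received gamma rays once, at 7 weeks of age and 0.81 Gy/min, and whose lungs were taken after 25 weeks. Both groups carry the label 25 weeks. The submitters describe the irradiated mice as overexpressing alpha-smooth muscle actin, with fibrosis assessed by staining and western blot. The sources used here give neither the total dose nor how many mice stand behind an array. With 1 array in each group, no difference has a replicate check or a test, and the number of arrays limits the precision of every value below.

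Wnt proteins are secreted, lipid-modified ligands that bind frizzled receptors together with Lrp5 or Lrp6, which stabilises beta-catenin and lets it act with Lef1 and Tcf factors on target genes. R-spondins, through Lgr receptors, strengthen that signal, whereas Sfrp, Dkk and Wif1 proteins are secreted inhibitors. Hedgehog ligands bind patched, which releases Smo and leads to activation of Gli factors, and Ptch1, Gli1 and Hhip are themselves targets of the pathway. Both pathways pattern the developing lung, where epithelium and mesenchyme signal to each other, and both have been studied in lung fibrosis.

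The sequence upstream of the start site is shown for the members with the largest difference in each direction, Hhip and Sfrp2, for Wnt3a, the Wnt ligand with the largest difference, and for Wnt11, which holds a motif of the Wnt pathway's own factors and was chosen for it after the search. Each is the 250 bases before the start site, 5′ to 3′ on the strand of the gene, from RefSeq on GRCm38.p6. The windows are chr8:80058009-80058258 (minus strand) for Hhip, chr3:83766071-83766320 (plus strand) for Sfrp2, chr11:59290752-59291001 (minus strand) for Wnt3a and chr7:98834862-98835111 (plus strand) for the first of Wnt11's 2 listed start sites. Capitals mark the Tcf/Lef motif, which is in the Wnt11 window.
Hhip: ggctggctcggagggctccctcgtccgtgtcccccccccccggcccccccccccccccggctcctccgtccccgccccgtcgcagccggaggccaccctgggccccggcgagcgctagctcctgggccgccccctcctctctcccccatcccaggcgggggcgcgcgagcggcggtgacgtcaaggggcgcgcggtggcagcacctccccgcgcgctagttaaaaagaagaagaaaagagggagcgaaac
Sfrp2: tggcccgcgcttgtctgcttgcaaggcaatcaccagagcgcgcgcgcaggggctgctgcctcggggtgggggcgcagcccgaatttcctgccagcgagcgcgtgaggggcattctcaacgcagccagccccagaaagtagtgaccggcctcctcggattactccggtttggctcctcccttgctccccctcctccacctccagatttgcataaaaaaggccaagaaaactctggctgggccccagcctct
Wnt3a: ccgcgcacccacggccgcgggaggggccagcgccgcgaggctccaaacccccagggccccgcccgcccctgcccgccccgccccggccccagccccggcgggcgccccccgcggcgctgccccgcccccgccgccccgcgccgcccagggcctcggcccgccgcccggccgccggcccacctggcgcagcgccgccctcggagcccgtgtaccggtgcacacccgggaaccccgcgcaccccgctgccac
Wnt11: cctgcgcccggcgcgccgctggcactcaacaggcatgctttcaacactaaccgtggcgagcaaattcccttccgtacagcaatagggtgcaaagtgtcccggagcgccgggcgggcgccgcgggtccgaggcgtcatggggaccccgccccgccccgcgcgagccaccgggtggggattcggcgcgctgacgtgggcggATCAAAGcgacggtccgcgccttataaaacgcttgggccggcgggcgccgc

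The letters searched were CTTTGAT for Tcf/Lef and GACCACCCA for Gli, on both strands, and the motifs do not overlap each other. Of the 59 members, 40 had an upstream sequence in the RefSeq table. Some genes have several start sites, and these 40 genes had 48 windows. The Tcf/Lef letters occurred in 2 of the 48 (4.17%), 1 of the 2 windows of Wnt11 and 1 of the 3 of Wnt5b, and in 3.21% of 32817 upstream windows of all genes. The Gli letters occurred in 0 of the 48 and in 0.225% of all windows. The windows of the members were rich in G and C, with a median of 66.8% against 52.4% over all, and those of Hhip and Wnt3a reached 76.0% and 87.6%.

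Among the 59 genes, Hhip was the only one at least 1.5-fold higher in the irradiated array, and Sfrp2, Rspo4 and Wnt3a were at least 1.5-fold lower. All values are RMA values, the authors' normalised array signals on a log2 scale, and every difference is the irradiated minus the nonirradiated value on that scale. The single higher gene is 1.69% of the members, against 2.07% of all 19049 genes, and the 3 lower genes are 5.08%, against 1.2% of all genes. No member differed 2-fold. Past a smaller limit of 0.32 on the log2 scale, 3 members were higher and 10 lower, or 5.08% and 16.9%, against 8.32% and 8.98% of all genes. In direction, 34 of 59 (57.6%) were lower in the irradiated array, against 53.3% of all genes, and their median difference was -0.06, against -0.02.

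Since signal near background says little about a gene, each gene's mean over both arrays was also set against the median of all genes, 7.29. Of the 59 members, 33 were at or above it, and 26 lay below it. Among these 33, 18 were lower (54.5%), against 60.1% of the 9525 genes of that range. At 1.5-fold, 1 of them was higher and 2 were lower, against 1.51% and 0.882% of that range. Past the smaller limit these numbers were 2 and 7, against 5.04% and 9.96%. As a scale for spread within these arrays, clusters of the same gene disagreed with an SD of 0.29 in their differences (802 clusters of 347 genes). This SD comes from genes at or above the median level. Clusters of a gene can lie on opposite strands, so it is not purely technical. Spiked control RNAs gave SDs of 0.14 to 0.31. None of these holds the spread between mice. Of the members, 43 differed by less than 0.29, 3 were higher by more and 13 lower by more, which is 5.08% and 22.0% of them, against 9.95% and 11.3% of all genes. The 26 members below the median level were set against the same SD, though it does not come from genes of their range.

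**Figure D1:**
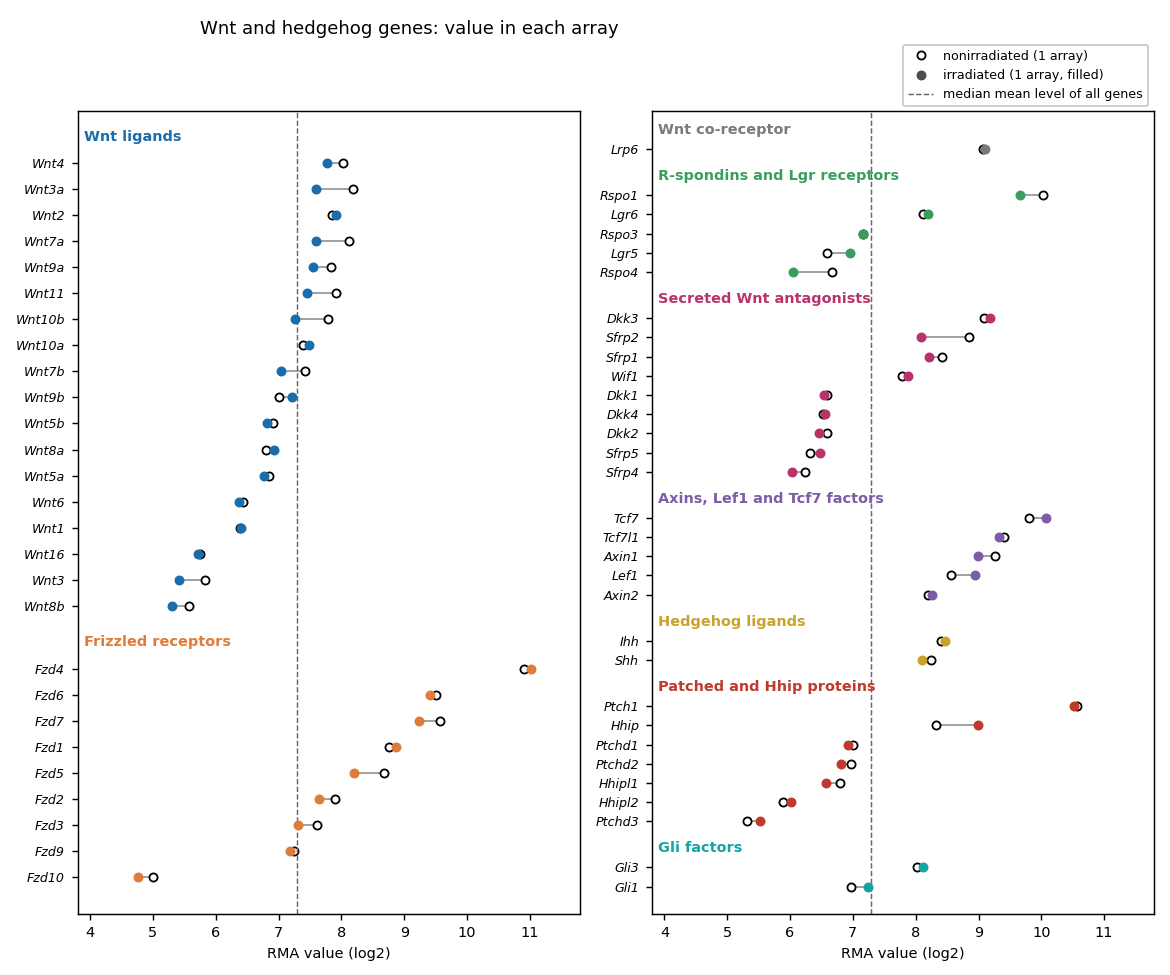
RMA value (log2, horizontal axis) of 58 of the 59 genes in the nonirradiated array (open circle) and the irradiated array (filled circle), grouped by role and ordered by mean level. Each circle is 1 array, the line joins the arrays, and the dashed line is the median mean level of all genes, 7.29; most pairs lie close together, and the longest lines are those of Sfrp2, Hhip, Rspo4 and Wnt3a.

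**Figure D2:**
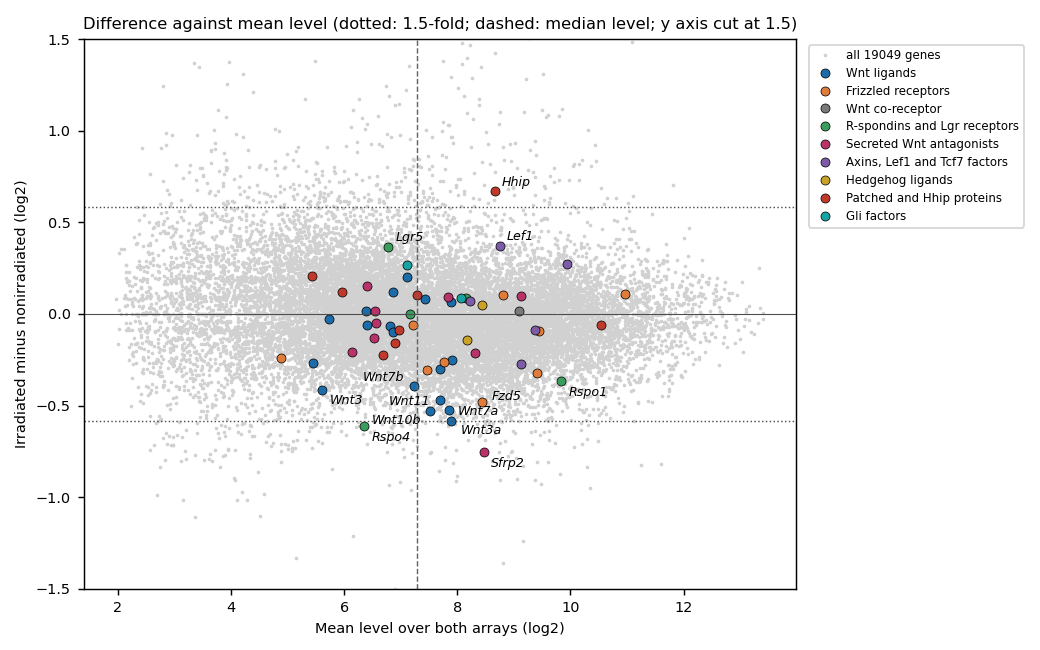
Difference between the arrays (log2, vertical axis) against mean level (log2, horizontal axis) for all genes (grey) and the 59 members (coloured by role). Dotted lines mark 1.5-fold and the dashed line the median level; Hhip lies above the upper line, Sfrp2, Rspo4 and Wnt3a below the lower one, and other Wnt ligands lie between -0.39 and -0.53 just above the lower line.

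The Wnt ligands were mostly lower in irradiated lung. Of 18 ligands, 13 were lower and 5 higher, with a median difference of -0.17 and a range from -0.59 to 0.20. Of all genes, 53.3% were lower, with a median of -0.02. Of the 8 ligands at or above the median level, 6 were lower, with a median of -0.38, where 60.1% of all genes of that range were lower. Past 0.32, 6 of the 18 were lower and none was higher, where 8.98% and 8.32% of all genes lay past that limit.

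Wnt3a, a ligand of the beta-catenin branch, read 8.19 without irradiation and 7.60 with it. The difference of -0.59 just reached the 1.5-fold limit, and with a smooth trend of difference on level removed it was -0.53, short of that limit. Among genes at or above the median level, 0.871% were lower by at least as much. Wnt10b, which restrains fat cell formation, read 7.79 and 7.26 and fell just short of the limit at 1.44-fold lower. Wnt7a read 8.12 and 7.59, a difference of -0.52, and Wnt11, a ligand known for beta-catenin-independent signalling, read 7.92 and 7.45, a difference of -0.47. All 4 differences were larger than the 0.29 SD between clusters of a gene, which holds no spread between mice.

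Wnt7b, an epithelial ligand that drives growth of the lung mesenchyme during development, lay slightly below the median level and read 7.43 and 7.03, a difference of -0.39. Wnt9a read 7.84 and 7.54 (-0.30), and Wnt4 read 8.03 and 7.78 (-0.25). Wnt2, the ligand of the lung mesenchyme needed, with Wnt2b, for the lung to form, went the other way by little, from 7.85 to 7.92. Wnt10a was likewise similar in both arrays, at 7.39 and 7.48. Wnt5a, the main ligand of beta-catenin-independent signalling, read 6.84 and 6.77, and its relative Wnt5b read 6.92 and 6.82. Among the other dim ligands, Wnt3 differed by -0.41 from a value of 5.82, Wnt8b by -0.27 and Wnt9b by 0.20, while Wnt1, Wnt6, Wnt8a and Wnt16 differed by -0.06 to 0.12.

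Several ligand genes are neighbours, and their differences did not share a sign throughout, though several were small or came from dim genes. On chromosome 11, Wnt3a (59248033 to 59290752, minus strand, GRCm38) lies 16.2 kb from Wnt9a (59306928 to 59333552, plus strand), and both were lower, by -0.59 and -0.30 on the log2 scale. Wnt10b (chromosome 15, 98771752 to 98778150, minus strand) differed by -0.53, whereas Wnt1, 11.7 kb away, differed by 0.02. Wnt9b and Wnt3, 24.3 kb apart on chromosome 11, differed by 0.20 and -0.41. Wnt6 and Wnt10a, 6.20 kb apart on chromosome 1, differed by -0.06 and 0.08. The means of Wnt1, Wnt3 and Wnt6 were 6.39, 5.61 and 6.40, below the median of the array's intron control rows, 6.44. Wnt1, Wnt6, Wnt10a and Wnt9b differed by less than the 0.29 SD between clusters of a gene, so their signs say little.

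Of the 9 frizzled receptors, 7 were lower and 2 higher, with a median of -0.24 and no gene at 1.5-fold. Of all genes, 53.3% were lower. At or above the median level, 5 of 7 receptors were lower, where 60.1% of all genes of that range were. Fzd5 read 8.68 without irradiation and 8.20 with it, a difference of -0.48, or 1.40-fold. Fzd7 read 9.56 and 9.24 (-0.32), Fzd3 read 7.62 and 7.31 (-0.30), and Fzd2 read 7.90 and 7.64 (-0.26). These 4 receptors were lower by 1.20-fold to 1.40-fold, whereas the other receptors at or above the median level differed less. Fzd6 read 9.50 and 9.41, Fzd1 read 8.76 and 8.86, and Fzd4 read 10.90 and 11.01. Fzd4, the receptor of Norrin as well as of Wnt ligands in blood vessels, thus differed by 0.11. Fzd9 and Fzd10 were below the median level and differed by -0.06 and -0.24.

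Lrp6, the co-receptor, had a pair of clusters that do not read alike. The cluster over the gene on the minus strand of chromosome 6 (134446476 to 134566913) read 11.01 and 10.95. A short cluster on the opposite strand within it (134448285 to 134449647) read 7.14 and 7.24, and the mean of both gives a difference of 0.02. Neither cluster differed by more than 0.10 in either direction.

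The R-spondins and their receptors had a median of 0.00 over 5 genes. Rspo1 read 10.02 and 9.65, a difference of -0.37, or 1.29-fold lower. Rspo4 read 6.66 and 6.05, which is 1.53-fold lower from a value below the median level. Of all genes, 0.929% were lower by at least as much. The mean of Rspo4, 6.36, also lay below the median of the array's intron control rows, 6.44. Rspo3 read 7.17 in both arrays with a difference of exactly 0, as did 298 of the 19049 genes. The receptor Lgr5, a stem cell marker in several epithelia, was dim in both arrays and read 6.59 and 6.96, a difference of 0.37. Lgr6 read 8.12 and 8.20.

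Among 9 secreted Wnt antagonists, 5 were lower and 4 higher, with a median of -0.05. Sfrp2, a decoy for Wnt ligands made by mesenchymal cells, had the largest difference of any member. Its cluster on chromosome 3 (plus strand, GRCm38, 83766321 to 83774316), which holds 21 probes, read 8.85 without irradiation and 8.09 with it, a difference of -0.75, or 1.69-fold lower. Among genes at or above the median level, 0.283% were lower by at least as much. Sfrp1, a close relative, read 8.43 and 8.22 (-0.21). Dkk3 read 9.08 and 9.18, and Wif1, which binds Wnt ligands directly, read 7.79 and 7.88. Of the 4 antagonists at or above the median level, Sfrp2 and Sfrp1 were thus lower and the other two higher, each of these by 0.10 or less. Dkk1, Dkk2, Dkk4, Sfrp4 and Sfrp5 were below the median level and differed by -0.21 to 0.15.

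Of the 5 members that act inside the cell, 3 were higher and 2 lower, with a median of 0.07. Lef1 read 8.57 and 8.94, a difference of 0.37, or 1.29-fold, and Tcf7 read 9.80 and 10.08, a difference of 0.27, or 1.21-fold. Both partner beta-catenin and are also expressed by T cells. Tcf7l1 read 9.41 and 9.33. Axin1, a scaffold of the complex that destroys beta-catenin, read 9.27 and 8.99 (-0.27), while Axin2, its relative and a widely used target gene of the pathway, read 8.19 and 8.26 (0.07). Of these 5 genes, Lef1 alone differed by more than the spread of 0.29 between clusters of a gene.

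In the hedgehog pathway, the ligand-binding inhibitor Hhip stood apart from the ligands, the receptor and the Gli factors. The ligands were similar in both arrays, with Shh at 8.25 and 8.11 and Ihh at 8.41 and 8.46. Their median of -0.05 changed sign to 0.02 with the trend on level removed. Ptch1, the receptor and a target, read 10.58 and 10.52.

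Hhip, a membrane protein that binds and sequesters hedgehog ligands, lies on chromosome 8 (79965851 to 80058008, minus strand, GRCm38). Its cluster of 29 probes read 8.33 without irradiation and 9.0 with it, a difference of 0.67, or 1.59-fold higher. Among genes at or above the median level, 1.08% were higher by at least as much. Gli1, the target most used to read out the pathway, lay below the median level and read 6.97 and 7.24 (0.27), and Gli3, largely a repressor, read 8.02 and 8.11 (0.09). Of the targets, Hhip was thus 1.59-fold higher, Gli1 1.20-fold higher and Ptch1 1.04-fold lower. Ptchd1, Ptchd2, Ptchd3, Hhipl1 and Hhipl2, which the names bring in but which are not established members of the receptor system, were all below the median level and differed by -0.22 to 0.21.

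**Figure D3:**
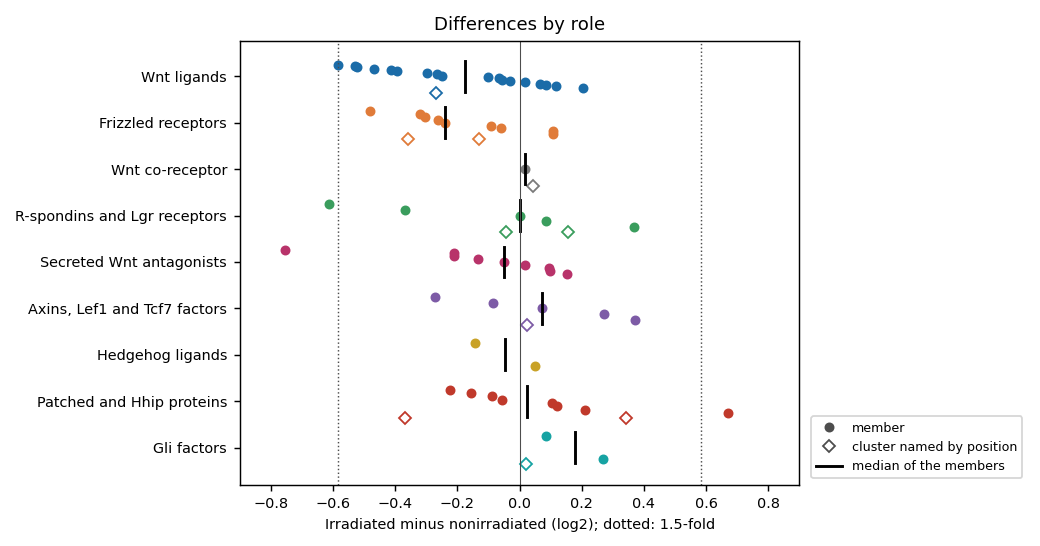
Difference between the arrays (log2, horizontal axis) for each role group: filled circles are the 59 members, open diamonds are 10 clusters without a symbol that were named by their position, and the black bar is the median of the members. Dotted lines mark 1.5-fold; the medians of the Wnt ligands (-0.17) and frizzled receptors (-0.24) lie below 0, and Hhip is the point farthest to the right.

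Some genes of these families are measured by clusters to which the deposited annotation gives no symbol. Of 68 RefSeq symbols that match the same names, 10 had no cluster with that symbol, and each of the 10 had 1 unnamed cluster at its place on GRCm38, with at least 80% of both intervals shared. For 6 of these the strand could be checked and was the same. Smo, the membrane protein that carries the hedgehog signal into the cell (chromosome 6, 29735497 to 29761366, plus strand), read 9.64 without irradiation and 9.27 with it, a difference of -0.37. The cluster at Gli2, the main activating Gli factor, read 7.65 and 7.67. Wnt2b, a relative of Wnt2, read 7.95 and 7.68 (-0.27). The co-receptor Lrp5 read 10.20 and 10.25, Tcf7l2 read 8.89 and 8.91, Lgr4 read 7.93 and 7.89, and Fzd8 read 8.65 and 8.52. Rspo2, Ptchd4 and the noncoding RNA Fzd10os were dim and differed by 0.16, 0.34 and -0.36. None of the 10 reached 1.5-fold, and 5 were higher and 5 lower.

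Other genes of both pathways, from lists of further components and targets, differed little. The lists hold genes with a symbol on the array, and further clusters named by position are given at the end of each account. For scale, 53.3% of all genes were lower, with a median of -0.02. At or above the median level 60.1% were lower, with a median of -0.05. Of 25 genes for Wnt secretion, co-receptors and planar polarity, 17 were lower, with a median of -0.11 and none at 1.5-fold. Of the 25, 20 lay at or above the median level. Celsr1, a planar polarity cadherin, read 9.48 and 8.94 (-0.55), and Porcn, the enzyme that attaches the lipid to Wnt ligands, read 9.73 and 9.37 (-0.36). Ptk7, a pseudokinase receptor of planar polarity, differed by -0.34, the glypicans Gpc4 and Gpc3 by -0.27 and -0.25, and the receptor Ror1 by -0.24. The lower Wnt ligand values thus came beside lower values of Porcn, and Wls, which carries the ligands to the cell surface, read 11.31 and 11.09. With 3 genes named by position, 18 of 28 were lower, with a median of -0.06.

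Of 25 intracellular Wnt components, 18 were lower, with a median of -0.06. All 25 lay at or above the median level, where 60.1% of genes were lower, with a median of -0.05. The scaffold proteins Dvl2 and Dvl1 differed by -0.33 and -0.29, the beta-catenin antagonist Cby1 by -0.31, Fbxw11 by -0.20, Pygo2 by -0.17 and the kinase Csnk1g1 by 0.23. Beta-catenin itself, Ctnnb1, read 11.97 and 11.89. With 4 genes named by position, 20 of 29 were lower. Of 21 genes listed as Wnt targets, 11 were higher and 9 lower, with a median of 0.00. Wisp2 differed by 0.32, Bambi by -0.26, Jag1 by -0.20, Apcdd1 by 0.19, Prdm1 by 0.16 and Ccnd1 by -0.12. With 4 targets named by position, 13 of 25 were higher and 11 lower, and none was at 1.5-fold.

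Of 26 other hedgehog pathway genes, 20 were lower, with a median of -0.10. Of the 26, 21 lay at or above the median level, where 60.1% of genes were lower, with a median of -0.05. The adenylyl cyclase Adcy5 differed by -0.42, and Sufu, which holds Gli factors in the cytoplasm, read 8.09 and 8.39 (0.30). Spop differed by -0.27, Stk36 and Adrbk1 both by -0.23 and Arrb2 by -0.17. The third hedgehog ligand, Dhh, read 7.24 and 7.10. With 3 genes named by position, 21 of 29 were lower. Of 15 genes listed as hedgehog targets, 10 had a symbol on the array. Of these, 8 were higher, against 45.1% of all genes, with a median of 0.15 and none at 1.5-fold. Of 4 further targets named by position, Osr1 differed by 0.27, and Ccnd2, Igf2 and Mycn by -0.07, -0.18 and -0.29, so that 9 of 14 were higher, with a median of 0.14. Foxf1, a transcription factor of the lung mesenchyme, read 12.18 and 12.48 (0.30), while Foxf2 and Snai1 both differed by 0.14, Cntfr by 0.10, Prdm1 by 0.16 and Jag2 by -0.16.

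**Figure D4:**
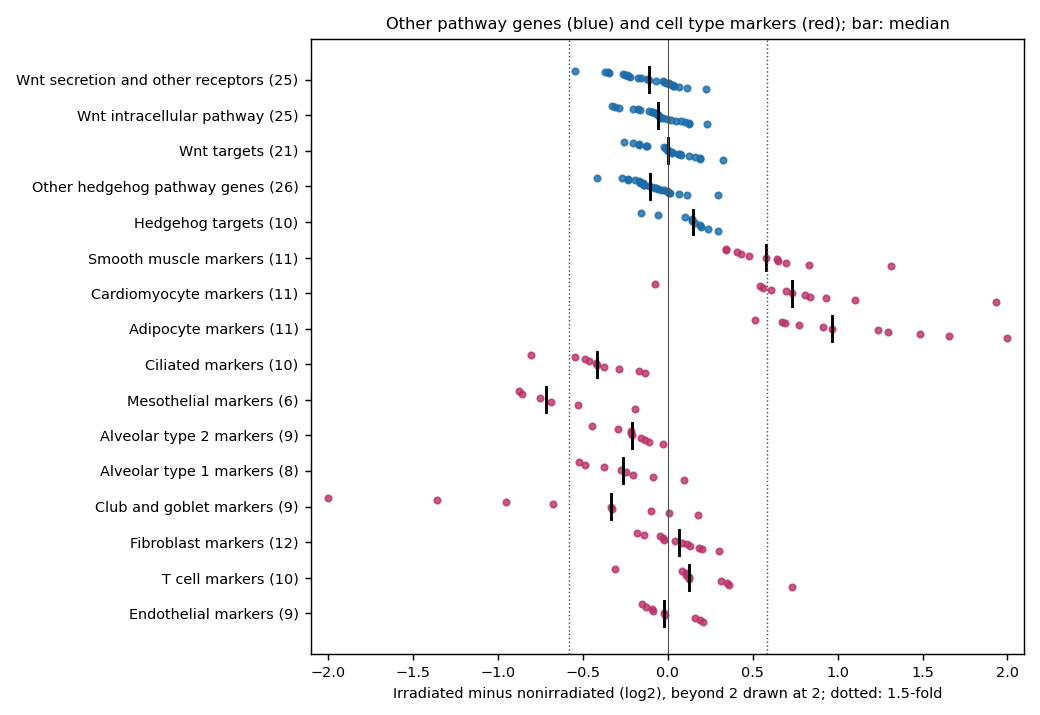
Difference between the arrays (log2, horizontal axis) for the genes of 5 lists of other pathway genes (blue) and 11 lists of cell type markers (red), with the number of genes in brackets and the list median as a black bar. The pathway lists have medians between -0.11 and 0.15, whereas the marker medians run from -0.72 in mesothelium to 0.97 in adipocytes.

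Markers of several lung and neighbouring cell types differed between the arrays as well, most of all those of adipocytes, heart muscle, mesothelium and smooth muscle, whereas fibroblast and endothelial markers had medians near 0. In such bulk samples, fewer cells of a type and less RNA per cell cannot be told apart. Lung identity was clear, with Sftpc, the surfactant gene of alveolar type 2 cells, at 13.42 and 13.39 and Scgb1a1, the main club cell product, at 13.41 and 13.42. Summed signal is given below on the linear scale, as the sum of the antilogs of a list's genes, so bright genes weigh most. RMA values have no true zero and came with no detection call, so no marker can be called absent.

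Beside the lower Wnt ligands stood lower epithelial markers. All 10 ciliated cell genes were lower, with a median of -0.42 and a summed signal of 8073 without irradiation and 6148 with it. All 9 alveolar type 2 genes were lower (median -0.21, summed signal 58137 and 52173), as were 7 of 8 alveolar type 1 genes (median -0.26, summed signal 28620 and 24796). Of 9 club and goblet cell genes, 7 were lower, with a median of -0.33 and a summed signal of 36260 and 33476. Their differences ranged widely, from -2.06 to 0.18, so the median stands for them poorly. The brightest of these 9, Scgb1a1, weighs most in that sum and differed by 0.01. All 6 mesothelial genes were lower, with a median of -0.72 and a summed signal of 5327 and 3725. At 1.5-fold, 4 of 9 club and goblet, 4 of 6 mesothelial and 1 of 10 ciliated genes were lower, and no alveolar gene was. Of all genes, 1.2% were lower by that much, while 53.3% were lower by any amount, and 60.1% of those at or above the median level. Clusters named by position added 7 epithelial and mesothelial genes to these lists, and each of the 7 was lower. The part of these markers in the values of the Wnt ligands, Fzd5, Fzd7, Rspo1 and Sfrp2 was not tested.

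Beside the higher Hhip stood smooth muscle markers, of which all 11 were higher and 5 passed the 1.5-fold limit, against 2.07% of all genes. Their median was 0.58 and their summed signal 5662 and 8955. Acta2 differed by 0.65, Des by 0.58 and Myh11 by 0.70. Of 11 heart muscle genes, 10 were higher (median 0.73, summed signal 6048 and 11181), and all 11 adipocyte genes with a symbol were higher (median 0.97, summed signal 3432 and 8117). More of these than of the smooth muscle genes passed the 1.5-fold limit, 8 for heart muscle and 10 for adipocytes. A cluster named by position, that of the lipase Lpl, read 10.70 and 10.65, and with it 11 of 12 adipocyte genes were higher. Fibroblast genes were higher in 7 of 12 cases, with a median of 0.06 and a summed signal of 23956 and 24722, and endothelial genes in 3 of 9, with a median of -0.02. With clusters named by position, 12 of 12 smooth muscle, 11 of 12 heart muscle and 9 of 14 fibroblast genes were higher. Beside the higher Lef1 and Tcf7 stood T cell genes, of which 9 of 10 with a symbol were higher, with a median of 0.12 and a summed signal of 6712 and 8282. Among these, Il7r differed by 0.73 and Ccr7 by 0.13, while Cd3d differed by -0.31. Clusters named by position gave 0.15 for Cd3e and 0.54 for Cd3g, which makes 11 of 12 higher, with a median of 0.14. Beside all these counts, 45.1% of all genes were higher, and 39.4% of those at or above the median level. The part of these markers in the values of Hhip, Lef1 and Tcf7 was not tested.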

How the data were processed

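Total RNA of lung, 300 ng per array, was biotin-labelled and hybridised to gene-level arrays, per the labels' protocols. The authors deposited log2 values from RMA, and the submitters' processing notes name Affymetrix Expression Console 1.3.1. RMA as usually run gives both arrays a common distribution, which hides any change that most genes share and compresses dim values. The workbook's values equalled those of the value table to within rounding, and per-row coordinates are on GRCm38.

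Here, rows of the main category with 1 symbol were averaged per symbol and the nonirradiated value was subtracted from the irradiated one. Single arrays allow no p-value. Every member may be named; both values are given for each member at or above the median level or at 1.5-fold, and further ones for context. The values of 1 member and 1 marker gene are not reported here, though both stay in the counts and medians. From each marker list the 3 brightest could be named. From each list of other pathway genes the 6 largest differences at or above the median level are named, and Wls, Ctnnb1, Dhh, Cd3d and the genes of lists named by position were added after their values were seen. Members, lists and motifs were chosen with earlier results of these data known. Of the marker genes of each list, those without a symbol on the array were left out of the medians and sums, and counts with clusters named by position stand beside them. Alternatives were subtraction of a lowess trend (span 0.3), median centring, the row with the most probes, no cross-hybridising rows, the value table, limits on level, other fold limits and, chosen after seeing the data, the 10 clusters named by position. Counts and trend removal were checked on simulated data with planted shifts well past the 1.5-fold limit. The simulated noise was smaller than the spread of differences in these arrays, so calls near the limit were not checked. Python 3.11.15, pandas 2.3.3 and statsmodels 0.14.6 were used.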

Additional observations from a re-analysis of the deposited data

How the results depend on the processing

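Among the 34 members at or above the median level or at 1.5-fold, no difference changed sign under median centring, trend removal, the row with the most probes, the removal of cross-hybridising rows (no member row is one) or the value table, and the largest move was 0.08. Apart from trend removal, these settings could hardly move a value. The centring shift was 0, the value table held the same values, and Lrp6 alone had more than 1 cluster. For Lrp6, the row with the most probes was the short opposite-strand cluster (0.10), whereas the cluster on the gene's strand differed by -0.06. With the trend removed, 2 members in place of 3 were at least 1.5-fold lower, because Wnt3a moved to -0.53. With a limit at the median of intron control rows the number was also 2, because Rspo4 lies below it. With a limit of 2-fold, 0 members were higher and 0 lower, and with 0.32 on the log2 scale 3 were higher and 10 lower, by construction of the limit. With members at or above the median level alone, 15 were higher, since only 33 genes remain. The median of the Wnt ligands was -0.38 with that limit, -0.25 with a limit at the median of intron control rows (6.44) and -0.25 with Wnt2b named by position added, against -0.17 for all 18. The median of R-spondins and Lgr receptors was -0.14 at or above the median level, where 2 genes remain. The median of the patched and Hhip proteins, 0.02, was -0.07 with the intron limit. No paired analysis was possible because each group has 1 array. Dim signal limits the 26 members below the median level, 11 of which also lay below the intron control median.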
